A study of Mus musculus with 2 samples.

Results

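The module described here holds 38 of the 32285 genes measured, 28 immediate early genes and 10 heat shock genes, chosen by name as genes that answer to activation of a cell and to its handling. Their UMIs (unique molecular identifiers, each standing for 1 captured RNA molecule) were read in optic nerve cells of Nf1-OPG mice, which model the glioma of the optic pathway in neurofibromatosis. In these mice 1 Nf1 allele carries a neomycin cassette in every cell, and Cre driven by the GFAP promoter removes the other, floxed allele in neuroglial progenitors. The first group was treated with an antibody against PD-1 (named anti-PDCD1 in the labels) and the second with an antibody against TIGIT. Both proteins are receptors that restrain T cells. Each group is 1 library of live cells, sorted by exclusion of the dye 7-AAD from the pooled optic nerves of 10 mice at 12 weeks of age. No untreated library was analysed here, so the values set 1 antibody against the other and no gene is described against an untreated nerve. The tissue is labelled as optic nerve, although the protocol also speaks of meningeal dura, and cells with oligodendrocyte and precursor markers were found in both libraries.

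Immediate early genes are transcribed within minutes of a signal from factors already present in the cell, without new protein synthesis. Many encode transcription factors, such as the FOS and JUN proteins that pair as AP-1 and the zinc finger proteins of the EGR family, and others encode proteins that end the response, such as the phosphatase DUSP1, the mRNA decay factor ZFP36, the NF-kappaB inhibitor NFKBIA and the cytokine signalling inhibitor SOCS3. Heat shock genes encode chaperones that fold proteins, and heat shock factor 1 drives the inducible ones from short sequence elements in their promoters. Enzymatic dissociation of tissue induces both kinds of gene, and microglia are known to respond strongly.

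Deposited barcodes numbered 13997 with 85031565 UMIs for anti-PD-1 and 7915 with 40733655 UMIs for anti-TIGIT, and 13267 anti-PD-1 cells and 7503 anti-TIGIT cells were retained at median depths of 4460 UMIs in the anti-PD-1 and 4126 UMIs in the anti-TIGIT library. The libraries shared 163 barcodes. The module took 1.64% of the UMIs of retained anti-PD-1 cells and 1.67% of those of anti-TIGIT cells. With 1 library per treatment, no test was possible, and no difference below has a check by replicates. Intervals are at 95% and hold counting error alone, and differences between mice, dissociations or sequencing runs cannot be told apart from the treatment. Neither can the Cell Ranger version, which was 8.0.0 in the anti-PD-1 run but 8.0.1 in the anti-TIGIT run. Cells were placed in classes by marker genes that hold none of the 38 members, and 10 classes reached 100 cells in both libraries and were compared.

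The promoters of 4 members are printed, to show sequence elements known to act in genes of both kinds. RefSeq promoter sequences on GRCm38.p6 were found for 31 of the 38 members. The names without an entry were Egr1, Egr3, Ier2, Nfkbiz, Hspa8, Hsp90aa1 and Hsp90ab1. The 250 bases before the start of Hspa1a (chr17:34972157-34972406, minus strand), Hspa1b (chr17:34959239-34959488, minus strand), Fos (chr12:85473640-85473889, plus strand) and Dusp1 (chr17:26508473-26508722, minus strand) are given from 5′ to 3′, with the matched motif in capitals. Hspa1a and Hspa1b, which passed the 2-fold size rule given below in more classes than any other member, were printed to show how alike they are. Fos stands for the AP-1 genes, and Dusp1 for the feedback genes.
Hspa1a: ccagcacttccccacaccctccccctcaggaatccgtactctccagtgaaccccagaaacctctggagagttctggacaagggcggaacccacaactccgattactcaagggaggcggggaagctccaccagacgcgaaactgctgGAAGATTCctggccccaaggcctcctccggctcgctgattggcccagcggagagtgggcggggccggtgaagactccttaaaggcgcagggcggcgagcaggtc
Hspa1b: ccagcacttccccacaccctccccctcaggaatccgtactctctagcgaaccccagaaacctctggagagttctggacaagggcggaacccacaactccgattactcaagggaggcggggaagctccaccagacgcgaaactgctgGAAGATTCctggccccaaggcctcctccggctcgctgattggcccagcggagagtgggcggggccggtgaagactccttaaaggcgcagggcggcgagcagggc
Fos: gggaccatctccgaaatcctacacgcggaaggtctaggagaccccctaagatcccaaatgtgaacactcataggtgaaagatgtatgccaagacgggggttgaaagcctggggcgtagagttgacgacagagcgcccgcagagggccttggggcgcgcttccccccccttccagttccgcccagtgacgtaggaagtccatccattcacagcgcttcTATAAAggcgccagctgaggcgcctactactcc
Dusp1: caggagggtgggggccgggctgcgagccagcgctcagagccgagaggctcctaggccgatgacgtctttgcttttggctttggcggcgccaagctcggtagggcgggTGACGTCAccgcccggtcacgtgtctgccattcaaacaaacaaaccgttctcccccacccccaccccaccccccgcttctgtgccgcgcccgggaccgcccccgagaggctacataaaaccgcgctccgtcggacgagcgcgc
The capitals mark a heat shock element in Hspa1a and Hspa1b, 104 to 97 bases before the start, searched as GAANNTTC or TTCNNGAA. In Fos they mark a TATA box, searched as TATAAA, 33 to 28 bases before the start, and in Dusp1 a cAMP response element, searched as TGACGTCA, 143 to 136 bases before it. All motifs were searched on both strands. The heat shock element was found in 5 of 7 heat shock promoters (Hspa1a, Hspa1b, Dnaja1, Hsph1 and Hspe1), in 2 of 24 immediate early promoters (Fosl2 and Jun), and in 12.9% of 32536 promoters of this length. The cAMP response element was found in Dusp1 and Btg2 and in 1.56% of all promoters, and the TATA box in 6 of 24 immediate early promoters, in none of the 7 heat shock promoters and in 12.3% of all. An AP-1 site (TGACTCA or TGAGTCA) was found in the promoter of Tnfaip3 alone among the members and in 4.45% of all promoters. The promoters of Hspa1a and Hspa1b differed at 3 of 250 bases. Of all 151-base stretches of their transcripts, 37.9% of those of Hspa1a and 40.3% of those of Hspa1b were identical in the other gene. How reads that fit both were counted is not given in the sources used here, so the split of counts between Hspa1a and Hspa1b is uncertain.

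The immediate early genes were highest in the resident macrophages of the nerve and lowest in oligodendrocytes, the cells that form myelin, in both libraries. Levels are given as CPM, the UMIs of a gene per 1000000 UMIs of its class. Summed over the 28 genes, border macrophages, which line the meninges and vessels, stood at 37724 CPM (37257 to 38196) in anti-PD-1 cells and 34421 CPM (34143 to 34701) in anti-TIGIT cells. Microglia, the macrophages of the nerve tissue itself, stood at 30092 CPM (29970.3 to 30214) in anti-PD-1 cells and 41707 CPM (41402 to 42014) in anti-TIGIT cells. Of these macrophages, the border type led in the anti-PD-1 library and microglia in the anti-TIGIT library. Next came cDC2, the dendritic cells best known for priming CD4 T cells, at 28507 CPM in anti-PD-1 cells and 29504 CPM in anti-TIGIT cells. The markers of cDC2 include Il1b and Tnfsf9, and whether this choice drew in activated cells was not tested. Precursors of oligodendrocytes followed at 19614 CPM in anti-PD-1 cells and 10060.5 CPM in anti-TIGIT cells. Precursor cells had the largest ratio between the libraries. CD4 T cells stood at 14406 CPM in anti-PD-1 cells and 13015 CPM in anti-TIGIT cells, and cDC1, dendritic cells that cross-present antigen to CD8 T cells, at 12839.6 CPM in anti-PD-1 cells and 16927 CPM in anti-TIGIT cells. The remaining lymphocytes lay lower. B cells stood at 12810.2 CPM in anti-PD-1 cells and 11025 CPM in anti-TIGIT cells, CD8 T cells at 8853 CPM in anti-PD-1 cells and 8276 CPM in anti-TIGIT cells and plasma cells at 5854 CPM in anti-PD-1 cells and 5111 CPM in anti-TIGIT cells. Oligodendrocytes were last, at 2172 CPM (2150.2 to 2193) in anti-PD-1 cells and 1339 CPM (1320.1 to 1359) in anti-TIGIT cells. The orders of the 10 classes were alike in the libraries (Spearman's rho 0.90 over the 10 classes, which share their library). The 2 positions at the top were exchanged, and precursor cells were above CD4 T cells for anti-PD-1 and below B cells for anti-TIGIT. The cDC1 were below CD4 T cells for anti-PD-1 and above them for anti-TIGIT. Neighbours in these orders differed beyond counting error except cDC1 and B cells in the anti-PD-1 library.

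Heat shock genes were far more even across the classes. Their sum lay between 3358 CPM in B cells and 4522 CPM in oligodendrocytes of the anti-PD-1 library, leaving out plasma cells, and between 3988 CPM in B cells and 5598 CPM in microglia of the anti-TIGIT library. Plasma cells, which devote much of their mRNA to antibodies, stood apart at 780.3 CPM in anti-PD-1 cells and 872 CPM in anti-TIGIT cells. The order of classes was less alike between the libraries than for the immediate early genes (Spearman's rho 0.56 over the 10 classes). Oligodendrocytes were the class in which heat shock genes outweighed immediate early genes, in both libraries.

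**Figure D1:**
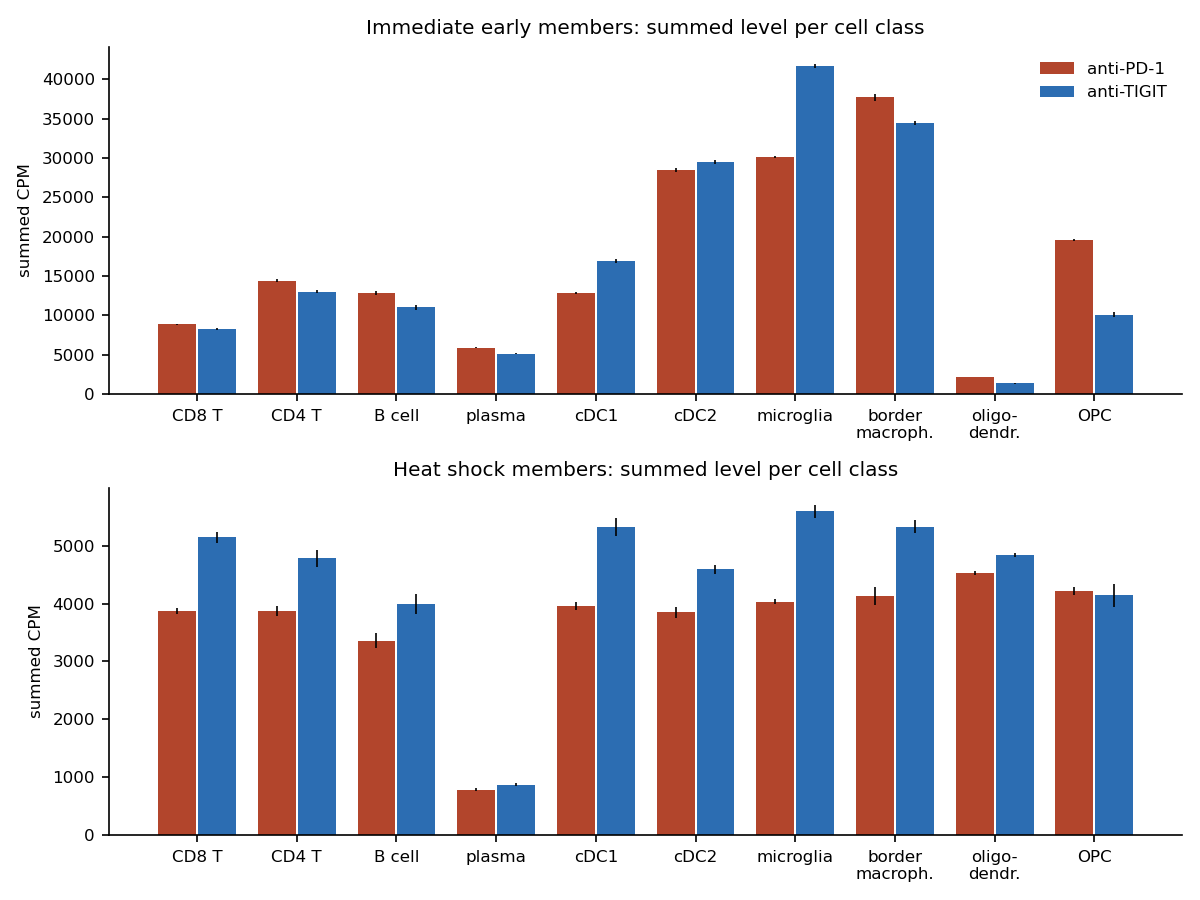
Summed level of the 28 immediate early members (top) and of the 10 heat shock members (bottom) in CPM, per cell class, with anti-PD-1 left of anti-TIGIT. Bars are 1 library each and error bars are 95% Poisson intervals. Immediate early sums run from 1339 CPM in anti-TIGIT oligodendrocytes to 41707 CPM in anti-TIGIT microglia.

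The direction of the immediate early difference between the treatments depended on the cell type. The sum was higher in the anti-PD-1 library in oligodendrocytes, at a log2 ratio (anti-PD-1 over anti-TIGIT) of 0.70 (0.67 to 0.72), and in precursor cells, at 0.96 (0.92 to 1.01). It was lower in microglia, at -0.47 (-0.48 to -0.46), and in cDC1, at -0.40 (-0.43 to -0.37). The other 6 classes lay between -0.05 in cDC2 and 0.22 in B cells, and the median over the 10 classes was 0.14. The heat shock sum was lower in the anti-PD-1 library in 9 classes, from -0.47 (-0.51 to -0.44) in microglia to -0.10 (-0.11 to -0.08) in oligodendrocytes, while the interval of precursor cells held 0, at 0.03 (-0.04 to 0.10). The median over the classes was -0.28. In plasma cells the heat shock ratio of -0.16 (-0.23 to -0.09) turned to 0.06 (-0.0022 to 0.12) with a looser gate, which allowed cells whose share of another lineage's markers reached 75%, in place of 45%, of the share of their own class. The tighter gate is used throughout and was chosen after values under the looser gate had been seen, and the looser value is given beside the calls it changed.

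Single members were read by size. A member was called at least 2-fold higher or lower where the log2 ratio of (CPM + 5) was at least 1 or at most -1, among members with at least 10 UMIs in the class over both libraries. Of the 380 pairs of a member and a class 376 could be read, and 20 were higher and 15 lower. Of the higher pairs 10 lay in oligodendrocytes and 8 in their precursors, with 1 each in CD8 T cells and plasma cells. The lower pairs lay in microglia, with 5, B cells, with 4, cDC1, with 3, cDC2, with 2, and border macrophages, with 1. The shares of all genes that passed the same size in each class are given beside the counts below, because they differ between classes.

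Oligodendrocytes carried more immediate early RNA in the anti-PD-1 library, though their levels were low. Of the 28 immediate early members 27 had a positive ratio, 10 were at least 2-fold higher and none was lower, where 1.53% of 15276 genes were higher and 0.19% lower. The members' median log2 ratio of (CPM + 5) was 0.83, against -0.0047 over all genes tested. Fos, the AP-1 partner of the JUN proteins, stood at 345 CPM (336 to 354) in anti-PD-1 cells and 96.7 CPM (91.6 to 102) in anti-TIGIT cells, a log2 ratio of 1.83 (1.75 to 1.92). Junb, another AP-1 gene, stood at 161 CPM (155 to 167) in anti-PD-1 cells and 46.4 CPM (42.9 to 50.2) in anti-TIGIT cells, a ratio of 1.79 (1.67 to 1.92). Egr1, a zinc finger factor, stood at 94 CPM (89.5 to 98.6) in anti-PD-1 cells and 28.7 CPM (26.0 to 31.7) in anti-TIGIT cells, a ratio of 1.71 (1.55 to 1.87). All 3 transcription factor genes were between 3 and 4 times as high in the anti-PD-1 cells.

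Socs3, which encodes an inhibitor of JAK and STAT signalling, had the largest ratio of the members with UMIs in both libraries of this class. It stood at 38 CPM (35.2 to 41.0) in anti-PD-1 cells and 2.81 CPM (2.0 to 3.84) in anti-TIGIT cells, or 3.76 (3.29 to 4.26), and the tenth of anti-PD-1 oligodendrocytes with the most Socs3 UMIs held 84.5% of them. Zfp36, which speeds the decay of cytokine mRNAs, stood at 92.0 CPM in anti-PD-1 cells and 38 CPM in anti-TIGIT cells (log2 ratio 1.28, 1.13 to 1.42). Gadd45b, a growth arrest and DNA damage gene, stood at 39.6 CPM in anti-PD-1 cells and 12.7 CPM in anti-TIGIT cells (log2 ratio 1.64, 1.40 to 1.88). Its relative Gadd45g stood lower in both libraries, at 14.9 CPM in anti-PD-1 cells and 2.23 CPM in anti-TIGIT cells (log2 ratio 2.74, 2.20 to 3.33). The others past 2-fold were Atf3 (log2 ratio 2.54, 2.04 to 3.09), Ier2 (log2 ratio 1.44, 1.19 to 1.70) and the antiproliferative gene Btg2 (log2 ratio 1.36, 1.08 to 1.64). Nfkbia, an inhibitor of NF-kappaB, was level at 179.7 CPM in anti-PD-1 cells and 181 CPM in anti-TIGIT cells (log2 ratio -0.01, -0.08 to 0.07). Jund, whose RNA many resting cells hold, was the most abundant of the group and nearly level, at 744 CPM in anti-PD-1 cells and 691 CPM in anti-TIGIT cells (log2 ratio 0.11, 0.07 to 0.14). Egr3 had 14 UMIs in anti-PD-1 cells and 0 in anti-TIGIT cells, where 3 UMIs would be 0.216 CPM.

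Some genes of other cell types were also higher in the anti-PD-1 oligodendrocytes, whose own 9 markers summed to 16777 CPM in anti-PD-1 cells and 16807 CPM in anti-TIGIT cells. The 8 microglial markers summed to 122 CPM in anti-PD-1 cells and 102 CPM in anti-TIGIT cells, with 6 of 8 higher in the anti-PD-1 cells and none at 0. The 10 cDC2 markers summed to 30.9 CPM in anti-PD-1 cells and 9.57 CPM in anti-TIGIT cells, with 9 of 10 higher and Cd209d at 0 in the anti-TIGIT cells, and the 7 T cell markers to 18.8 CPM in anti-PD-1 cells and 5.76 CPM in anti-TIGIT cells, with 7 of 7 higher and none at 0. The 8 plasma cell markers summed to 289 CPM in anti-PD-1 cells and 122 CPM in anti-TIGIT cells, with 6 of 8 higher and none at 0, and Jchain, an antibody chain gene of plasma cells, stood at 194 CPM in anti-PD-1 cells and 53.9 CPM in anti-TIGIT cells. The complement gene C1qa of macrophages stood at 65.3 CPM in anti-PD-1 cells and 8.85 CPM in anti-TIGIT cells, which was 0.559% of the microglial level in the anti-PD-1 and 0.117% in the anti-TIGIT library. Other such genes lay the other way. The haemoglobin gene Hbb-bs stood at 176 CPM in anti-PD-1 cells and 873 CPM in anti-TIGIT cells. The 7 markers of group 2 innate lymphoid cells summed to 45.2 CPM in anti-PD-1 cells and 85.7 CPM in anti-TIGIT cells, with 3 higher and 2 lower. Fos in oligodendrocytes was 8.39% of its microglial level in the anti-PD-1 and 1.97% in the anti-TIGIT library. No UMI of C1qa, C1qb or Lyz2 was seen in 1904 of 2459 anti-PD-1 oligodendrocytes and in 1749 of 1985 anti-TIGIT oligodendrocytes. Other macrophage genes were still higher in the anti-PD-1 cells among these. Ctss stood at 6.16 CPM in anti-PD-1 cells and 1.97 CPM in anti-TIGIT cells, and Tyrobp at 8.21 CPM and 4.11 CPM in that order. C1qc stood at 6.70 CPM in anti-PD-1 cells and 3.95 CPM in anti-TIGIT cells, and Fcer1g, whose interval held 0, at 6.57 CPM and 4.77 CPM. Among the same cells 26 of 28 members had a positive ratio and 6 were at least 2-fold higher. Fos stood there at 328 CPM in anti-PD-1 cells and 97.1 CPM in anti-TIGIT cells (log2 ratio 1.76, 1.66 to 1.85), Junb at 129.8 CPM in anti-PD-1 cells and 44.3 CPM in anti-TIGIT cells (log2 ratio 1.55, 1.41 to 1.69) and Socs3 at 34.0 CPM in anti-PD-1 cells and 2.55 CPM in anti-TIGIT cells (log2 ratio 3.74, 3.21 to 4.31). Egr1, Gadd45b and Gadd45g also stayed past 2-fold, while Atf3, Ier2, Btg2 and Zfp36 came to log2 ratios of (CPM + 5) between 0.67 and 0.91. On that scale these 4 stood at 1.41, 1.15, 1.03 and 1.17 in the whole class. Without the removal of doublets the same 4 genes came to 0.59, 0.76, 0.56 and 0.91 in that order. Neither recount was made for plasma cell genes, and beyond these recounts the part of other cells' RNA in the result was not tested. With the looser gate, under which C1qa stood at 129 CPM in anti-PD-1 cells and 11.5 CPM in anti-TIGIT cells, the ratio of the immediate early sum was 0.85 (0.83 to 0.88).

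Oligodendrocyte precursor cells, the dividing cells from which oligodendrocytes arise, had the largest difference of the immediate early sum. Of 28 members 24 had a positive ratio, 7 were at least 2-fold higher and none was lower, where 3.96% of 12903 genes were higher and 2.47% lower. The anti-PD-1 library held 592 of these cells and the anti-TIGIT library 101. All genes of the class had a median log2 ratio of (CPM + 5) of -0.10, and the members a median of 0.68. Zfp36 stood at 483 CPM (459 to 507) in anti-PD-1 cells and 94.9 CPM (67.8 to 129) in anti-TIGIT cells, a log2 ratio of 2.35 (1.89 to 2.84). Gadd45g, which had its highest level of all classes here in both libraries, stood at 927 CPM (894 to 959.6) in anti-PD-1 cells and 237 CPM (193 to 289) in anti-TIGIT cells, or 1.97 (1.68 to 2.27). These were the largest ratios of members with UMIs in both libraries, and relative to the median of all genes they were 2.39 and 2.05 on the scale of CPM + 5.

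Fos had the highest level of the immediate early genes in precursor cells. It stood at 4743 CPM in anti-PD-1 cells and 2481 CPM in anti-TIGIT cells (log2 ratio 0.93, 0.84 to 1.03), just short of the size threshold. Jun stood at 2741 CPM in anti-PD-1 cells and 1139 CPM in anti-TIGIT cells (log2 ratio 1.27, 1.13 to 1.40) and Junb at 2364 CPM in anti-PD-1 cells and 1151 CPM in anti-TIGIT cells (log2 ratio 1.04, 0.91 to 1.17). Egr1 stood at 2603 CPM in anti-PD-1 cells and 1385 CPM in anti-TIGIT cells (log2 ratio 0.91, 0.79 to 1.03). Precursor cells of either library thus held several times the oligodendrocyte level of Fos, Junb and Egr1. Ier3, which protects cells from apoptosis, stood at 394 CPM in anti-PD-1 cells and 149 CPM in anti-TIGIT cells (log2 ratio 1.40, 1.03 to 1.79). Klf4, a zinc finger factor, had 144 UMIs in anti-PD-1 cells and 7 in anti-TIGIT cells (log2 ratio 1.36, 0.28 to 2.70), and its log2 ratio of (CPM + 5) was -0.08 with every cell thinned to 1000 UMIs. Atf3 had 50 UMIs in anti-PD-1 cells and 2 in anti-TIGIT cells, its interval held 0 (log2 ratio 1.64, -0.29 to 4.72), and its log2 ratio of (CPM + 5) was -0.14 without the removal of doublets. Members with negative ratios were Dusp5 (log2 ratio -0.83, -1.96 to 0.48), Btg1 (log2 ratio -0.31, -0.88 to 0.31), Fosl2 (log2 ratio -0.20, -1.94 to 2.19) and Zfp36l1 (log2 ratio -0.02, -0.26 to 0.22), each with an interval that held 0. The microglial markers summed to 77.2 CPM in anti-PD-1 cells and 85.4 CPM in anti-TIGIT cells, and 5 of the 8, Tmem119, Siglech, Gpr34, Olfml3 and Fcrls, were at 0 in the anti-TIGIT cells. The 8 precursor markers were all lower in the anti-PD-1 cells, with a sum of 8788 CPM in anti-PD-1 cells and 10585 CPM in anti-TIGIT cells. The 10 cDC2 markers summed to 116 CPM in anti-PD-1 cells and 33.2 CPM in anti-TIGIT cells, with 5 higher in the anti-PD-1 cells and none lower, and 5 of the 10 at 0 in the anti-PD-1 and 8 in the anti-TIGIT cells. The 8 plasma cell markers summed to 331 CPM in anti-PD-1 cells and 202 CPM in anti-TIGIT cells, with 6 higher, and Jchain stood at 192 CPM in anti-PD-1 cells and 75.9 CPM in anti-TIGIT cells. C1qa stood at 24.2 CPM in anti-PD-1 cells and 7.12 CPM in anti-TIGIT cells. Among precursor cells without UMIs of C1qa, C1qb or Lyz2, 507 in the anti-PD-1 library and 91 in the anti-TIGIT library, 5 members stayed past 2-fold. Junb and Atf3 came there to log2 ratios of (CPM + 5) of 0.99 and 0.97. The macrophage gene Tyrobp still had 32 UMIs in the anti-PD-1 and 0 in the anti-TIGIT cells of this recount. Fcer1g lay the other way, at 6.23 CPM in anti-PD-1 cells and 15.9 CPM in anti-TIGIT cells. Beyond this recount the part of other cells' RNA was not tested.

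**Figure D2:**
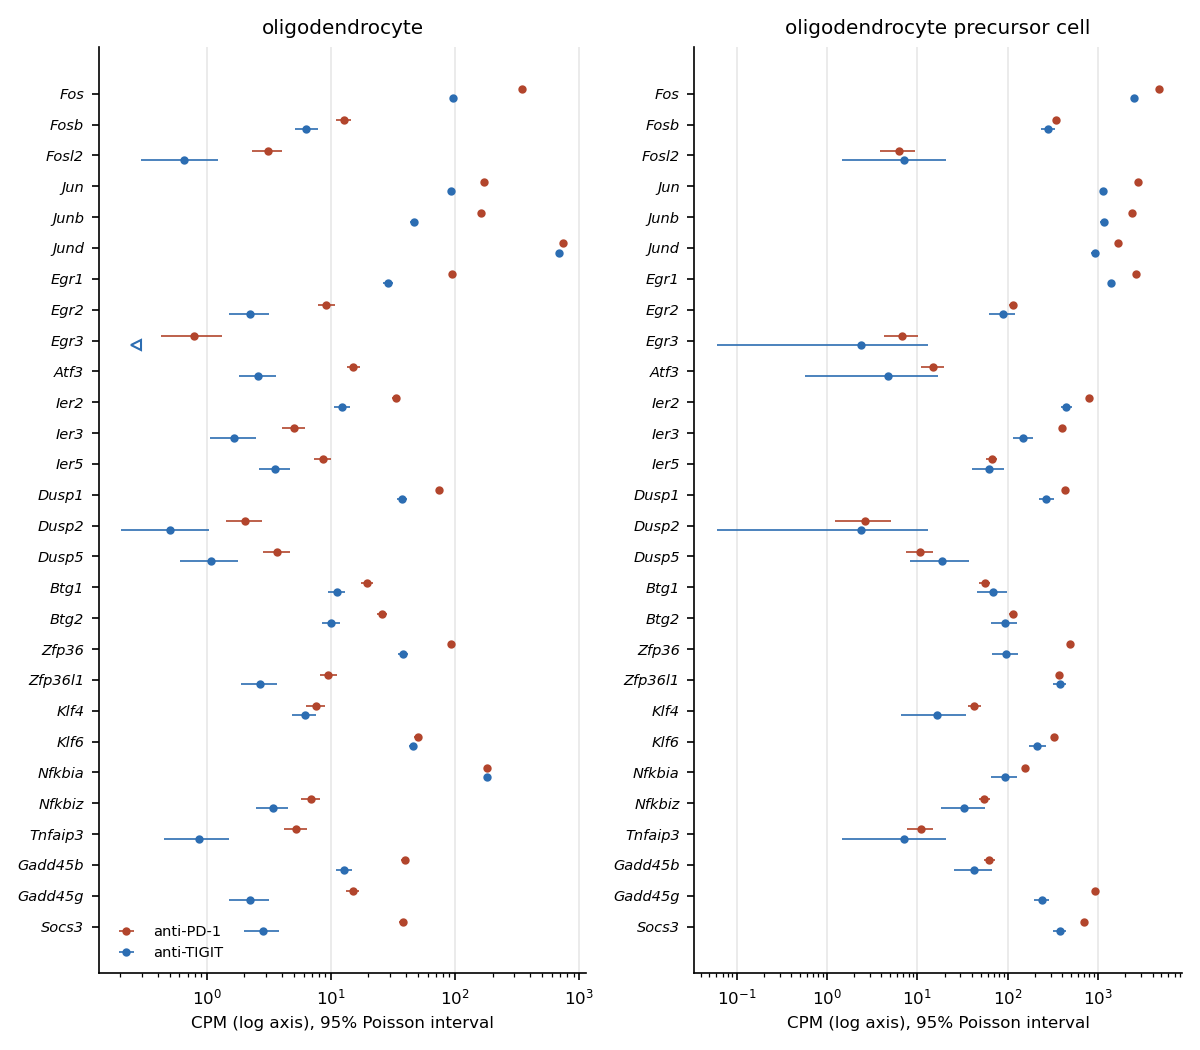
Level of each immediate early member in oligodendrocytes and in oligodendrocyte precursor cells, in CPM on a log axis, with points for the anti-PD-1 and anti-TIGIT libraries and 95% Poisson intervals. The open triangle marks the upper end of the interval of Egr3, which had 0 UMIs in anti-TIGIT oligodendrocytes. Fos stands at 345 CPM in anti-PD-1 oligodendrocytes and 96.7 CPM in anti-TIGIT oligodendrocytes.

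Microglia differed in the other direction. Of the 28 immediate early members 26 had a negative ratio, 3 were at least 2-fold lower in the anti-PD-1 library and none was higher, where 2.08% of 12336 genes were lower and 1.08% higher. All genes of the class had a median log2 ratio of (CPM + 5) of -0.17, against -0.44 over the members. Nfkbiz, an atypical NF-kappaB inhibitor that microglia and other macrophages induce after Toll-like receptor signals, stood at 352 CPM (339 to 366) in anti-PD-1 cells and 735 CPM (695 to 777) in anti-TIGIT cells, or -1.06 (-1.16 to -0.96). Ier3 stood at 221 CPM (211 to 232) in anti-PD-1 cells and 492 CPM (459.6 to 527) in anti-TIGIT cells, or -1.15 (-1.27 to -1.03), and Gadd45b at 102 CPM in anti-PD-1 cells and 215 CPM in anti-TIGIT cells (log2 ratio -1.07, -1.25 to -0.89). Relative to the median of all genes the 3 came to -0.88, -0.97 and -0.87 on the scale of CPM + 5, short of 2-fold. The abundant AP-1 and EGR genes were lower by less. Junb stood at 4146 CPM in anti-PD-1 cells and 5517 CPM in anti-TIGIT cells (log2 ratio -0.41, -0.45 to -0.38), Fos at 4115 CPM in anti-PD-1 cells and 4908 CPM in anti-TIGIT cells (log2 ratio -0.25, -0.29 to -0.22) and Egr1 at 2326 CPM in anti-PD-1 cells and 3862 CPM in anti-TIGIT cells (log2 ratio -0.73, -0.77 to -0.69). Jun had the largest difference among them, at 2187 CPM in anti-PD-1 cells and 3979 CPM in anti-TIGIT cells (log2 ratio -0.86, -0.90 to -0.82). Egr3 (log2 ratio 0.37, 0.10 to 0.65) and Dusp5 (log2 ratio 0.12, -0.30 to 0.57) had positive ratios, the second with an interval that held 0.

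The microglia of the libraries also differed in their markers and in their clusters. All 8 microglial markers were lower in the anti-PD-1 library, with a sum of 7636 CPM in anti-PD-1 cells and 11779 CPM in anti-TIGIT cells, and the 9 border macrophage markers summed to 66.2 CPM in anti-PD-1 cells and 413 CPM in anti-TIGIT cells. Median depth was 5897 UMIs in anti-PD-1 microglia and 3632.5 UMIs in anti-TIGIT microglia. A cluster led by Il1a, Cxcl13 and Hcar2 held 57.6% of anti-PD-1 and 21.5% of anti-TIGIT microglia, and there the immediate early sum stood at 31315 CPM in anti-PD-1 cells and 38910.2 CPM in anti-TIGIT cells (log2 ratio -0.31, -0.33 to -0.29). A cluster led by P2ry12, Gpr34 and Siglech, genes of resting microglia, held 10.2% of anti-PD-1 and 46.9% of anti-TIGIT microglia, and the sum stood at 50225 CPM in anti-PD-1 cells and 48458 CPM in anti-TIGIT cells (log2 ratio 0.05, 0.03 to 0.07). The lower immediate early sum of anti-PD-1 microglia was seen in the first cluster and not in the second. Another cluster, led by haemoglobin genes and shallow at a median of 1767 UMIs in anti-PD-1 cells and 962 UMIs in anti-TIGIT cells, held 26.2% of anti-PD-1 and 12.1% of anti-TIGIT microglia. Its immediate early sum was low and slightly higher in the anti-PD-1 library, at 1671 CPM in anti-PD-1 cells and 1530.3 CPM in anti-TIGIT cells. Of the clusters compared, the first alone thus had a lower sum in the anti-PD-1 library. The ratios of all of them lay above that of the class as a whole. Nfkbiz was lower in anti-PD-1 cells of the first cluster, at -0.88 (-1.05 to -0.71), and of the P2ry12 cluster, at -0.38 (-0.56 to -0.20). The part of the uneven filling of the clusters, and of depth, in the differences of the class was not tested beyond these values.

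In border macrophages, which had the highest immediate early sum of the anti-PD-1 library, no immediate early member passed 2-fold in either direction, where 1.03% of 10121 genes were higher and 2.45% lower. Of the 28 members 16 had a positive ratio and 12 a negative one. Fos stood at 5127 CPM in anti-PD-1 cells and 4061 CPM in anti-TIGIT cells (log2 ratio 0.34, 0.28 to 0.40) and Jun at 4101 CPM in anti-PD-1 cells and 3481 CPM in anti-TIGIT cells (log2 ratio 0.24, 0.17 to 0.30). Nfkbiz was lower, at 557 CPM in anti-PD-1 cells and 835 CPM in anti-TIGIT cells (log2 ratio -0.58, -0.75 to -0.42), and so were Nfkbia, at 618 CPM in anti-PD-1 cells and 851 CPM in anti-TIGIT cells (log2 ratio -0.46, -0.62 to -0.30), and Tnfaip3, at 68.3 CPM in anti-PD-1 cells and 102 CPM in anti-TIGIT cells (log2 ratio -0.57, -1.08 to -0.09), none of them past 2-fold. The class numbered 149 anti-PD-1 cells and 440 anti-TIGIT cells. Hbb-bs stood there at 39.5 CPM in anti-PD-1 cells and 1927 CPM in anti-TIGIT cells, and the part of other cells' RNA was not tested.

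The kinds of dendritic cell differed. In cDC1, 23 of 28 immediate early members had a negative ratio. Fosl2 alone of the group was at least 2-fold lower and none was higher, where 1.75% of 10375 genes were lower and 1.62% higher. It stood at 9.83 CPM in anti-PD-1 cells and 31.0 CPM in anti-TIGIT cells (log2 ratio -1.66, -2.48 to -0.83). Fosl2 encodes an AP-1 protein of the FOS family. With the looser gate its log2 ratio of (CPM + 5) was -0.94, and among cells taken by cluster -0.24. Btg2 came nearest of the others, at 769 CPM in anti-PD-1 cells and 1448 CPM in anti-TIGIT cells (log2 ratio -0.91, -1.01 to -0.81) and Egr1 at 905 CPM in anti-PD-1 cells and 1584 CPM in anti-TIGIT cells (log2 ratio -0.81, -0.90 to -0.71). Genes of macrophages also differed in cDC1. C1qa stood at 418 CPM in anti-PD-1 cells and 168 CPM in anti-TIGIT cells, and Lyz2 at 436 CPM in anti-PD-1 cells and 903 CPM in anti-TIGIT cells. Their part in the result was not tested. In cDC2 no immediate early member passed 2-fold, where 0.801% of 10618 genes were higher and 0.584% lower. The cells of the class lay in different clusters in the libraries, as given further on. Nfkbiz came nearest, at 540.0 CPM in anti-PD-1 cells and 987 CPM in anti-TIGIT cells (log2 ratio -0.87, -0.98 to -0.76). Junb, seen in the most cells of the class at equal depth, was level at 3910.2 CPM in anti-PD-1 cells and 3913 CPM in anti-TIGIT cells (log2 ratio -0.00098, -0.05 to 0.04).

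In lymphocytes, which include the T cells that both antibodies address, the immediate early sums of the whole classes differed less than in glia, microglia and cDC1. In CD8 T cells, the killer T cells that checkpoint antibodies are meant to release, 15 of 28 members had a positive ratio, 1 was at least 2-fold higher and none lower, where 1.49% of 12358 genes were higher and 0.712% lower. That member was Atf3, a low gene at 13.9 CPM in anti-PD-1 cells and 4.08 CPM in anti-TIGIT cells (log2 ratio 1.77, 0.78 to 2.95). The 8 microglial markers summed in the same cells to 76.4 CPM in anti-PD-1 cells and 49.9 CPM in anti-TIGIT cells, with 6 of 8 higher in the anti-PD-1 cells and Sall1 at 0 in the anti-TIGIT cells, and C1qa stood at 81.8 CPM in anti-PD-1 cells and 12.7 CPM in anti-TIGIT cells. Their part in the result was not tested beyond leaving cells out. In CD8 T cells without UMIs of C1qa, C1qb or Lyz2, C1qc still stood at 14.8 CPM in anti-PD-1 cells and 4.13 CPM in anti-TIGIT cells. Tyrobp stood there at 21.6 CPM in anti-PD-1 cells and 13.4 CPM in anti-TIGIT cells. Among the same CD8 T cells Atf3 stood at 10.8 CPM in anti-PD-1 cells and 4.65 CPM in anti-TIGIT cells, a log2 ratio of (CPM + 5) of 0.71. That ratio was 1.06 in all CD8 T cells, 0.99 with the looser gate and 0.68 without the removal of doublets. Junb, the immediate early gene with the most RNA in T cells, stood at 2299 CPM in anti-PD-1 cells and 2014 CPM in anti-TIGIT cells (log2 ratio 0.19, 0.14 to 0.24). Jund (log2 ratio 0.51, 0.43 to 0.59) and Dusp1 (log2 ratio 0.49, 0.39 to 0.60) were higher, and Fos at 149.9 CPM in anti-PD-1 cells and 217 CPM in anti-TIGIT cells (log2 ratio -0.54, -0.70 to -0.37), Klf6 (log2 ratio -0.54, -0.66 to -0.40), Dusp2 (log2 ratio -0.47, -0.58 to -0.36) and Dusp5 (log2 ratio -0.47, -0.60 to -0.35) were lower in the anti-PD-1 library. Dusp2 and Dusp5, nuclear phosphatases that switch off ERK, had their highest levels of all classes here in both libraries.

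CD4 T cells had no member past 2-fold, where 3.03% of 10492 genes were higher and 1.09% lower. Genes of other cells were higher in the anti-PD-1 cells of the class. C1qa stood at 155.5 CPM in anti-PD-1 cells and 6.63 CPM in anti-TIGIT cells, Lyz2 at 178 CPM in anti-PD-1 cells and 18.8 CPM in anti-TIGIT cells, and the haemoglobin gene Hbb-bs at 1126 CPM in anti-PD-1 cells and 45.3 CPM in anti-TIGIT cells. The 8 microglial markers summed to 90.9 CPM in anti-PD-1 cells and 39.8 CPM in anti-TIGIT cells, with 6 higher, Fcrls at 0 in the anti-PD-1 cells and Sall1 and Olfml3 at 0 in the anti-TIGIT cells. Among CD4 T cells without UMIs of C1qa, C1qb or Lyz2 no immediate early member passed 2-fold either, and beyond that their part was not tested. Junb stood at 4260.3 CPM in anti-PD-1 cells and 3649 CPM in anti-TIGIT cells (log2 ratio 0.22, 0.16 to 0.28) and Dusp1 at 1268 CPM in anti-PD-1 cells and 959.8 CPM in anti-TIGIT cells (log2 ratio 0.40, 0.29 to 0.52). Btg1, a gene of quiescent lymphocytes, was level at 1224 CPM in anti-PD-1 cells and 1237 CPM in anti-TIGIT cells (log2 ratio -0.02, -0.12 to 0.09). In B cells, 4 members were at least 2-fold lower and none higher, where 6.14% of 8470 genes were lower and 3.4% higher, and 16 of 27 immediate early members had a positive ratio. Fos stood at 1220.4 CPM in anti-PD-1 cells and 773 CPM in anti-TIGIT cells (log2 ratio 0.66, 0.48 to 0.84) and Egr1 at 921 CPM in anti-PD-1 cells and 575 CPM in anti-TIGIT cells (log2 ratio 0.68, 0.48 to 0.89). Among B cells without UMIs of C1qa, C1qb or Lyz2 these ratios were 0.57 and 0.64. In the whole class C1qa stood at 27.9 CPM in anti-PD-1 cells and 6.14 CPM in anti-TIGIT cells. All 8 B cell markers were lower in the anti-PD-1 cells, with a sum of 5194 CPM in anti-PD-1 cells and 6892 CPM in anti-TIGIT cells. The part of these differences was not tested further. The immediate early members past 2-fold were low genes, Nfkbiz with 13 UMIs in anti-PD-1 cells and 28 in anti-TIGIT cells (log2 ratio -1.66, -2.73 to -0.67) and Gadd45g with 5 in anti-PD-1 cells and 14 in anti-TIGIT cells (log2 ratio -2.04, -3.87 to -0.49). With the looser gate the log2 ratio of (CPM + 5) of Gadd45g was 0.12 in B cells. In plasma cells, the antibody-secreting cells, Dusp1 was the member past 2-fold, at 235 CPM (223 to 249) in anti-PD-1 cells and 114 CPM (102 to 127) in anti-TIGIT cells, or 1.04 (0.87 to 1.22), where 1.18% of 10153 genes were higher and 0.975% lower. C1qa stood in the same cells at 41.9 CPM in anti-PD-1 cells and 3.38 CPM in anti-TIGIT cells, and its part was not tested beyond leaving cells out. Among plasma cells without UMIs of C1qa, C1qb or Lyz2, Dusp1 came to 0.98 on the scale of CPM + 5, just under the threshold. With every cell thinned to 1000 UMIs it came to 0.44. C1qc still stood at 5.35 CPM in anti-PD-1 and 1.18 CPM in anti-TIGIT plasma cells without those UMIs, while Ctss was level at 157 CPM and 156 CPM. Nfkbia lay the other way in plasma cells, at 163 CPM in anti-PD-1 cells and 279.8 CPM in anti-TIGIT cells (log2 ratio -0.78, -0.92 to -0.65).

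**Figure D3:**
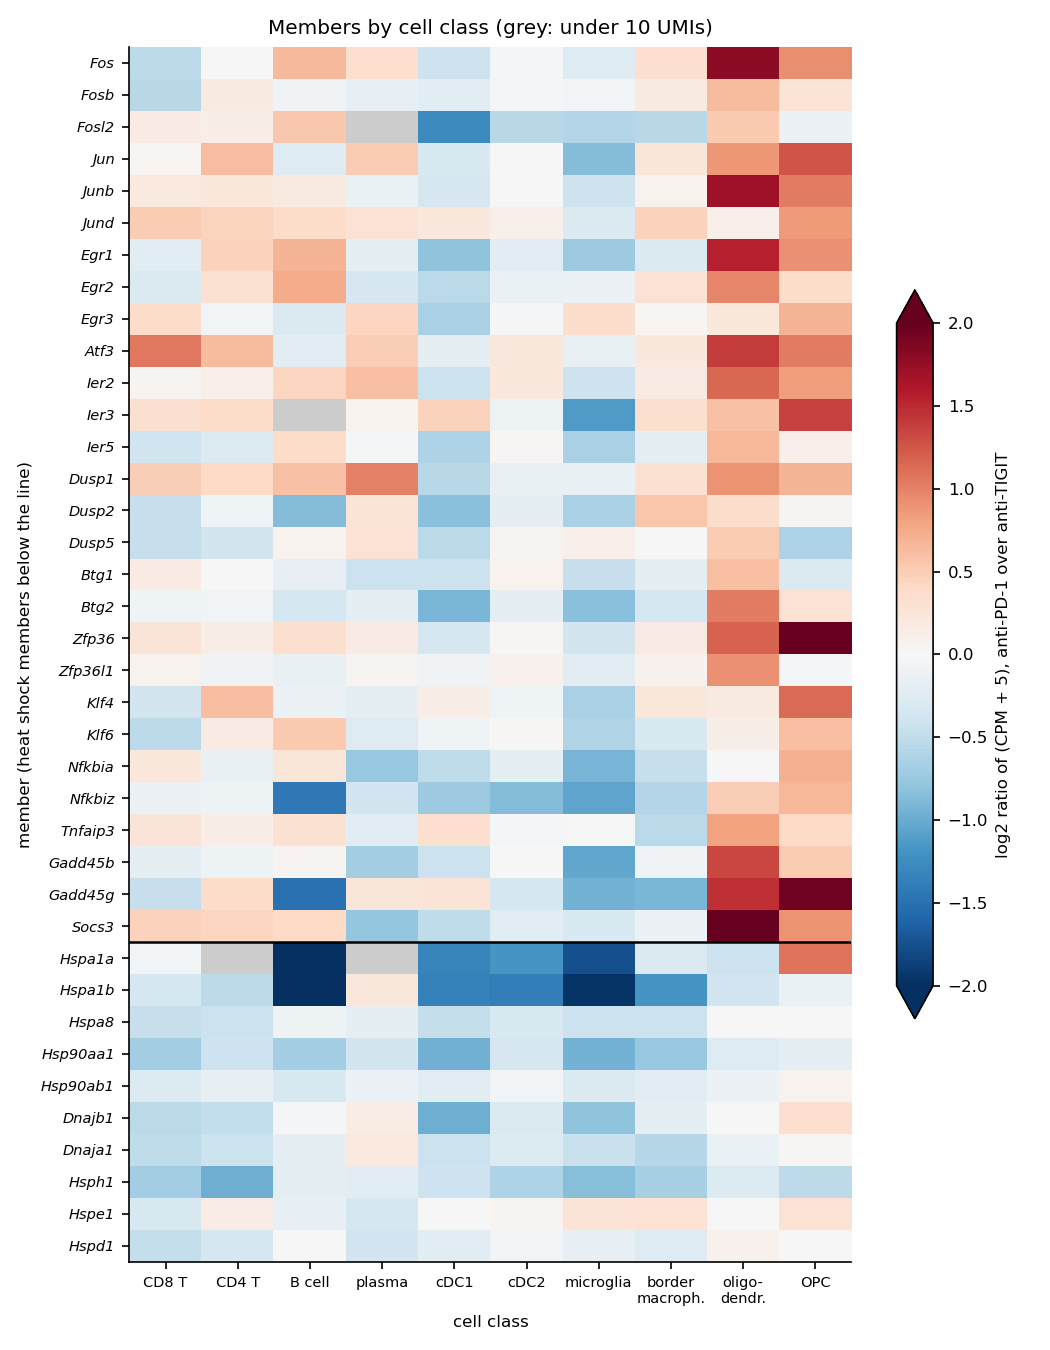
Log2 ratio of (CPM + 5), anti-PD-1 over anti-TIGIT, of each of the 38 members (rows, heat shock members below the line) in each of the 10 cell classes (columns), with pairs under 10 UMIs in grey. The 20 pairs at 1 or above lie mostly in the columns of oligodendrocytes and their precursors, and the 15 pairs at -1 or below in microglia, dendritic cells, B cells and border macrophages.

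Across the classes, AP-1 members differed in their direction. Jund was higher in the anti-PD-1 library in 9 of 10 classes, each with an interval above 0, from 0.10 (0.03 to 0.17) in cDC2 to 0.85 (0.70 to 1.0) in precursor cells, and lower in microglia (log2 ratio -0.29, -0.34 to -0.24). Atf3, which encodes a stress-induced AP-1 partner, was past 2-fold in 3 classes, higher in CD8 T cells, oligodendrocytes and precursor cells, and so was Gadd45g, higher in both glial classes and lower in B cells. The highest levels of Atf3 were in border macrophages (1737 CPM in anti-PD-1 cells and 1500.2 CPM in anti-TIGIT cells) and microglia (1322 CPM in anti-PD-1 cells and 1470.3 CPM in anti-TIGIT cells). Fosb, a close relative of Fos, had its largest ratio in oligodendrocytes at 12.7 CPM in anti-PD-1 cells and 6.33 CPM in anti-TIGIT cells (log2 ratio 1.0, 0.64 to 1.37) and passed the threshold on the scale of CPM + 5 in no class. Of the EGR genes, Egr2 ranged from -0.54 in cDC1 to 0.97 in oligodendrocytes on the scale of CPM + 5, and Egr3 was highest in cDC1, at 137 CPM in anti-PD-1 cells and 218 CPM in anti-TIGIT cells (log2 ratio -0.67, -0.93 to -0.41).

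Of the members that end the response, Nfkbiz had a negative ratio in 8 of 10 classes, past 2-fold in microglia and B cells. Tnfaip3, which edits ubiquitin chains to halt NF-kappaB, was highest in CD4 T cells at 749 CPM in anti-PD-1 cells and 680.0 CPM in anti-TIGIT cells (log2 ratio 0.14, -0.000023 to 0.28) and passed 2-fold in no class. Zfp36 had 3256 CPM in anti-PD-1 cells and 4214 CPM in anti-TIGIT cells in microglia (log2 ratio -0.37, -0.41 to -0.33), where it was lower, and was higher in precursor cells. Its relative Zfp36l1 ranged from -0.22 in microglia to 0.92 in oligodendrocytes on the scale of CPM + 5. Socs3 was highest in precursor cells of the anti-PD-1 library, at 699.8 CPM in anti-PD-1 cells and 375 CPM in anti-TIGIT cells (log2 ratio 0.90, 0.67 to 1.14), and in cDC2 of the anti-TIGIT library, at 655 CPM in anti-PD-1 cells and 760.1 CPM in anti-TIGIT cells (log2 ratio -0.21, -0.32 to -0.11). Btg2 had a negative ratio in 8 classes and Klf6, a zinc finger factor, in 5, from -0.60 in microglia to 0.60 in precursor cells. Ier5 and Dusp2 passed 2-fold nowhere, nor did Fosb, Jund, Egr2, Egr3, Dusp5, Btg1, Zfp36l1, Klf6, Nfkbia or Tnfaip3.

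The inducible HSP70 genes were the heat shock members that differed most, and each was lower in the anti-PD-1 library in every class past 2-fold except precursor cells. Hspa1a (ENSMUSG00000091971) and its tandem copy Hspa1b (ENSMUSG00000090877), whose promoters are printed above, encode the chaperone that cells make on heat or protein damage. Microglia held Hspa1a at 67.6 CPM (62.0 to 73.6) in anti-PD-1 cells and 241 CPM (219 to 266) in anti-TIGIT cells, a log2 ratio of -1.84 (-2.02 to -1.65). Hspa1b stood there at 27.2 CPM (23.7 to 31.1) in anti-PD-1 cells and 119.9 CPM (104 to 137) in anti-TIGIT cells, or -2.14 (-2.42 to -1.86). Relative to the median of all genes these came to -1.60 and -1.79 on the scale of CPM + 5. In cDC1, Hspa1a stood at 68.1 CPM in anti-PD-1 cells and 180.1 CPM in anti-TIGIT cells (log2 ratio -1.40, -1.72 to -1.09) and Hspa1b at 27.0 CPM in anti-PD-1 cells and 76.3 CPM in anti-TIGIT cells (log2 ratio -1.5, -2.0 to -1.0). The same held in cDC2, with Hspa1a at 98.3 CPM in anti-PD-1 cells and 230.1 CPM in anti-TIGIT cells (log2 ratio -1.23, -1.49 to -0.97) and Hspa1b at 33.2 CPM in anti-PD-1 cells and 94.7 CPM in anti-TIGIT cells (log2 ratio -1.51, -1.97 to -1.08). Border macrophages, which had the most Hspa1a of the classes in both libraries, differed less in it, at 304 CPM in anti-PD-1 cells and 372 CPM in anti-TIGIT cells (log2 ratio -0.29, -0.53 to -0.06), and Hspa1b stood at 57.7 CPM in anti-PD-1 cells and 137 CPM in anti-TIGIT cells (log2 ratio -1.25, -1.79 to -0.75). Hspa1b was at least 2-fold lower in 5 classes and Hspa1a in 4, B cells among them. Outside microglia several of these calls ended under other settings. On the scale of CPM + 5, Hspa1b in border macrophages came to -0.83 with classes taken from clusters and -0.82 with every cell thinned to 1000 UMIs, and thinning brought Hspa1a in cDC1 to -0.83. Among cDC2 with Y-linked UMIs, Hspa1a came to -0.83 and Hspa1b to -0.68. In B cells, 15 of the 16 Hspa1a UMIs and 17 of the 20 Hspa1b UMIs of the anti-TIGIT library came from 1 cell each, and the looser gate gave Hspa1a there a log2 ratio of (CPM + 5) of -0.86.

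CD8 T cells held little Hspa1a, at 1.11 CPM in anti-PD-1 cells and 1.36 CPM in anti-TIGIT cells, and CD4 T cells and plasma cells had fewer than 10 UMIs of it. Oligodendrocytes stood at 5.77 CPM in anti-PD-1 cells and 9.57 CPM in anti-TIGIT cells (log2 ratio -0.73, -1.12 to -0.35). In precursor cells Hspa1a had 19 UMIs in the anti-PD-1 library and 0 in the anti-TIGIT library, where 3 UMIs would be 7.12 CPM against the 5.62 CPM of anti-PD-1 cells, so no fold can be given although the pair passed 2-fold on the scale of CPM + 5.

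The other chaperones of the cytosol differed by less, mostly in the same direction. Hsp90aa1, the more inducible of the cytosolic HSP90 genes, had a negative ratio in all 10 classes, and Hsph1, an HSP110 cochaperone that recharges HSP70, did too, also when ratios were taken relative to the median of all genes. Hsp90aa1 stood at 222 CPM (211 to 234) in anti-PD-1 cells and 362 CPM (337 to 388) in anti-TIGIT cells in CD8 T cells (log2 ratio -0.70, -0.83 to -0.58) and at 210.3 CPM in anti-PD-1 cells and 411 CPM in anti-TIGIT cells in microglia (log2 ratio -0.97, -1.09 to -0.84). It was highest in oligodendrocytes, at 902 CPM in anti-PD-1 cells and 1078 CPM in anti-TIGIT cells (log2 ratio -0.26, -0.29 to -0.22). Only in precursor cells did its interval hold 0 (log2 ratio -0.18, -0.40 to 0.05). Hsph1 ranged from -1.06 (-1.54 to -0.58) in CD4 T cells, at 41.9 CPM in anti-PD-1 cells and 87.4 CPM in anti-TIGIT cells, to -0.29 (-0.42 to -0.17) in oligodendrocytes among the 6 classes whose interval lay below 0. Hspa8, the constitutive HSP70, was lower in 7 classes by interval, with CD8 T cells at 1380.2 CPM in anti-PD-1 cells and 1892 CPM in anti-TIGIT cells (log2 ratio -0.46, -0.51 to -0.40) and cDC1 at 1617 CPM in anti-PD-1 cells and 2264 CPM in anti-TIGIT cells (log2 ratio -0.49, -0.56 to -0.41). In oligodendrocytes it was level at 1562 CPM in anti-PD-1 cells and 1548 CPM in anti-TIGIT cells (log2 ratio 0.01, -0.01 to 0.04), and in precursor cells as well (log2 ratio -0.01, -0.14 to 0.12).

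Among the cochaperones that feed clients to HSP70, Dnajb1 was highest in microglia at 338 CPM in anti-PD-1 cells and 591 CPM in anti-TIGIT cells (log2 ratio -0.81, -0.91 to -0.70), and Dnaja1 was lower by interval in 7 classes, with border macrophages at 269 CPM in anti-PD-1 cells and 402 CPM in anti-TIGIT cells (log2 ratio -0.58, -0.83 to -0.34). The mitochondrial chaperonins, which a separate stress response controls, were more mixed. Hspe1 had a positive ratio in 5 classes, among them microglia at 368 CPM in anti-PD-1 cells and 303 CPM in anti-TIGIT cells (log2 ratio 0.28, 0.15 to 0.42), and its partner Hspd1 differed by interval in 3 classes only, all lower, with CD8 T cells at 138 CPM in anti-PD-1 cells and 193 CPM in anti-TIGIT cells (log2 ratio -0.49, -0.65 to -0.32). Hsp90ab1, the constitutive HSP90 gene, was lower by interval in 7 classes and ranged from -0.30 in B cells to 0.07 in precursor cells on the scale of CPM + 5.

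**Figure D4:**
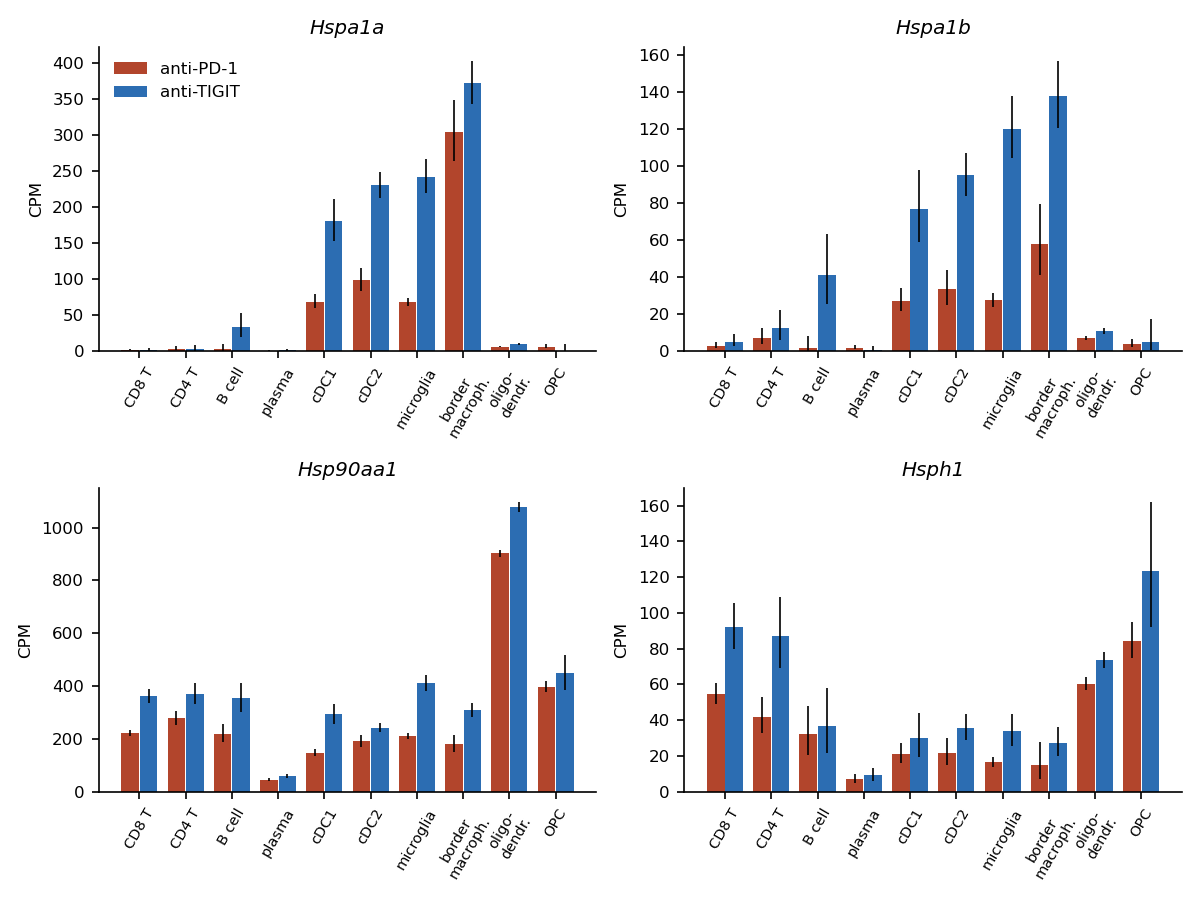
Level of the heat shock members Hspa1a, Hspa1b, Hsp90aa1 and Hsph1 in CPM in each cell class, with the anti-PD-1 bar left of the anti-TIGIT bar and 95% Poisson intervals. Each panel has its own axis from 0. Hspa1a stands at 67.6 CPM in anti-PD-1 microglia and 241 CPM in anti-TIGIT microglia, and the anti-PD-1 bar of Hsp90aa1 is the lower in all 10 classes.

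Other genes of the same pathways, listed apart from the members, were counted by the same rule. The shares of all genes past 2-fold, given above for each class, apply to these lists too. A list with 1 call holds the fewest that can be called and is not read as a result about the list. In oligodendrocytes 6 of 31 other immediate early genes were at least 2-fold higher and none lower, where 1.53% of all genes were higher. Their median log2 ratio of (CPM + 5) was 0.29 against -0.0047 over all genes. In precursor cells 9 of 32 were higher and none lower, where 3.96% of all genes were higher, with a median of 0.53 against -0.10. Cebpb, a bZIP factor of acute phase responses, stood at 60.1 CPM in anti-PD-1 cells against 3.46 CPM in anti-TIGIT cells in oligodendrocytes (log2 ratio 4.12, 3.70 to 4.57), and its relative Cebpd at 138 CPM in anti-PD-1 cells against 39.2 CPM in anti-TIGIT cells (log2 ratio 1.82, 1.68 to 1.95). Cebpd was also higher in precursor cells, at 713 CPM in anti-PD-1 cells against 292 CPM in anti-TIGIT cells (log2 ratio 1.29, 1.03 to 1.56). Socs1, a second inhibitor of JAK signalling, stood at 11.1 CPM in anti-PD-1 cells against 1.15 CPM in anti-TIGIT cells in oligodendrocytes, and Bcl3 and Ier5l were higher in both glial classes. The sixth gene in oligodendrocytes was Nr4a1, an orphan nuclear receptor, at 16.0 CPM in anti-PD-1 cells against 4.39 CPM in anti-TIGIT cells. Bcl3 had 163 UMIs in anti-PD-1 precursor cells and 0 in anti-TIGIT ones. Its anti-PD-1 level was 6.77 times a floor of 3 UMIs in the anti-TIGIT library, and the interval of its log2 ratio began at 2.445. Csrnp1 with 100 UMIs in anti-PD-1 cells and 1 in anti-TIGIT cells (log2 ratio 3.64, 1.13 to 8.96) and Myc (log2 ratio 1.79, 0.97 to 2.76) were higher in precursor cells too, as were Cebpb (log2 ratio 1.5, 0.68 to 2.47) and Klf2 (log2 ratio 1.41, 0.77 to 2.14). Of the 9, Pim1 had 44 UMIs in anti-PD-1 precursor cells and 0 in anti-TIGIT ones. Its anti-PD-1 level was 1.83 times the same floor, short of 2-fold, and the interval of its log2 ratio began at 0.51. Nfkbie had 35 UMIs in anti-PD-1 cells and 1 in anti-TIGIT cells, with an interval that held 0 (log2 ratio 2.13, -0.45 to 7.47).

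In microglia 1 of 31 other immediate early genes, Klf10, was at least 2-fold lower, where 2.08% of all genes were. It stood at 8.31 CPM in anti-PD-1 cells against 27.9 CPM in anti-TIGIT cells, and the list's median was -0.36 against -0.17 over all genes. In cDC2 Rhob (log2 ratio -1.27, -1.76 to -0.81) and in border macrophages Csrnp1 (log2 ratio -1.25, -1.77 to -0.75) were lower, and in plasma cells none of 30 passed 2-fold. In cDC1 Nr4a2 (log2 ratio -1.25, -1.48 to -1.02), Nr4a3 (log2 ratio -1.07, -1.37 to -0.78) and Mafk (log2 ratio -1.48, -2.25 to -0.71) of 29 genes were lower, where 1.75% of all genes were. Ier5l was higher in all 3 lymphocyte classes where it passed 2-fold, CD8 T cells at 669.5 CPM in anti-PD-1 cells against 266 CPM in anti-TIGIT cells, CD4 T cells at 453 CPM in anti-PD-1 cells against 205 CPM in anti-TIGIT cells and B cells at 132 CPM in anti-PD-1 cells against 26.6 CPM in anti-TIGIT cells. Klf2, which keeps lymphocytes in circulation, was lower in CD8 T cells (log2 ratio -1.15, -1.37 to -0.92) and B cells (log2 ratio -1.23, -1.47 to -1.0). In B cells Egr4 and Nfkbie were lower, from at most 38 UMIs each in a library, and Klf10 passed the size threshold with 10 UMIs in anti-PD-1 cells and 2 in anti-TIGIT cells and an interval that held 0 (log2 ratio 1.77, -0.46 to 5.0). Of 25 other chaperone genes none passed 2-fold in 6 of the 10 classes, and in each of the others 1 did. Dnajb4 was lower in microglia (22.6 CPM in anti-PD-1 cells against 68.1 CPM in anti-TIGIT cells), and Hspb1 was higher in border macrophages, with 15 UMIs in anti-PD-1 cells and 11 in anti-TIGIT cells (log2 ratio 1.82, 0.60 to 3.08). The other calls, in the direction of anti-PD-1, rest on few UMIs. Ahsa2 in B cells had 20 UMIs in anti-PD-1 cells and 5 in anti-TIGIT cells, with an interval that held 0 (log2 ratio 1.45, -0.01 to 3.22). Hspb8 in precursor cells had 21 UMIs in anti-PD-1 cells and 0 in anti-TIGIT cells, and no fold is given because its 6.21 CPM in anti-PD-1 cells lies under the 7.12 CPM that 3 UMIs would be in the anti-TIGIT cells. The medians of the chaperone list lay between -0.33 in microglia and 0.02 in B cells. Among 10 genes of activated T cells, of which some are also counted above, Tnfrsf9 and Ccl3 were higher in CD8 T cells, at 549 CPM in anti-PD-1 cells against 239 CPM in anti-TIGIT cells and 269 CPM in anti-PD-1 cells against 123 CPM in anti-TIGIT cells, and the list's median was -0.02. In CD4 T cells Tnfrsf9, Ccl3 and Ccl4 were higher and Il2 and Xcl1 lower, with a median of -0.30.

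The differences were next read within clusters, since the libraries filled the clusters of a class unevenly. In oligodendrocytes all 6 clusters with at least 30 cells in each library had a higher immediate early sum in the anti-PD-1 library, from 0.31 (0.26 to 0.36) in the cluster led by Ptgds and Opalin to 0.97 (0.68 to 1.28) in a shallow cluster led by haemoglobin genes. A further cluster held 143 anti-PD-1 and 0 anti-TIGIT oligodendrocytes and could not be compared. The cluster led by Klk6, Serpina3n and Iigp1 held 23.1% of anti-PD-1 and 3.02% of anti-TIGIT oligodendrocytes and had the highest Fos level, at 563 CPM in anti-PD-1 cells and 201 CPM in anti-TIGIT cells (log2 ratio 1.48, 1.18 to 1.80). Socs3 stood there at 93.1 CPM in anti-PD-1 cells and 24.6 CPM in anti-TIGIT cells (log2 ratio 1.92, 1.07 to 2.93). In the largest cluster, led by Ptgds, Fos stood at 229 CPM in anti-PD-1 cells and 70.7 CPM in anti-TIGIT cells (log2 ratio 1.69, 1.5 to 1.89). The heat shock sum was lower in 5 of the 6 clusters and higher in the cluster led by Plcl1 and Magi2, at 4303 CPM in anti-PD-1 cells and 3266 CPM in anti-TIGIT cells (log2 ratio 0.40, 0.35 to 0.45). CD8 T cells lay mostly in a cluster led by Xcl1 and Pdcd1, with 63.1% of anti-PD-1 and 17.5% of anti-TIGIT cells, and a cluster with Gzmk among its leading genes, with 28.8% of anti-PD-1 and 69.0% of anti-TIGIT cells. The immediate early sum was nearly level in each, at 0.04 (-0.00068 to 0.09) in the first and -0.06 (-0.10 to -0.02) in the second. The heat shock sum was lower in anti-PD-1 cells of both, at -0.41 (-0.47 to -0.35) in the first and -0.37 (-0.42 to -0.32) in the second. In cDC2 the immediate early ratio was 0.06 (0.04 to 0.09) in the cluster led by Cd209a and 0.13 (0.10 to 0.17) in the cluster shared with cDC1, positive in each while the class as a whole stood at -0.05 (-0.07 to -0.03). The Cd209a cluster held 45.1% of anti-PD-1 and 68.8% of anti-TIGIT cDC2, and the cluster shared with cDC1 held 44.6% of anti-PD-1 and 16.0% of anti-TIGIT cDC2. In all, 61.2% of cDC2 lay in a cluster that carried the name of the class. Nfkbiz stood at -0.68 (-0.82 to -0.53) in the Cd209a cluster and 0.24 (-0.03 to 0.53) in the shared one. Hspa1a stood at -0.87 (-1.24 to -0.51) in the Cd209a cluster and -1.24 (-1.78 to -0.70) in the shared one, and Hspa1b at -0.97 (-1.59 to -0.40) in the Cd209a cluster and -2.06 (-3.03 to -1.17) in the shared one. CD4 T cells were also filled unevenly. A cluster led by Tnfsf8 and Penk held 47.6% of anti-PD-1 and 36.4% of anti-TIGIT cells, one led by Tnfrsf4 and Ctla4 29.3% of anti-PD-1 and 14.4% of anti-TIGIT cells, and one with Cd40lg and Il7r among its leading genes 17.3% of anti-PD-1 and 42.6% of anti-TIGIT cells. The immediate early ratio was 0.03 (-0.02 to 0.08) in the Tnfsf8 cluster, 0.24 (0.16 to 0.33) in the Tnfrsf4 cluster and 0.54 (0.48 to 0.60) in the Cd40lg cluster.

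**Figure D5:**
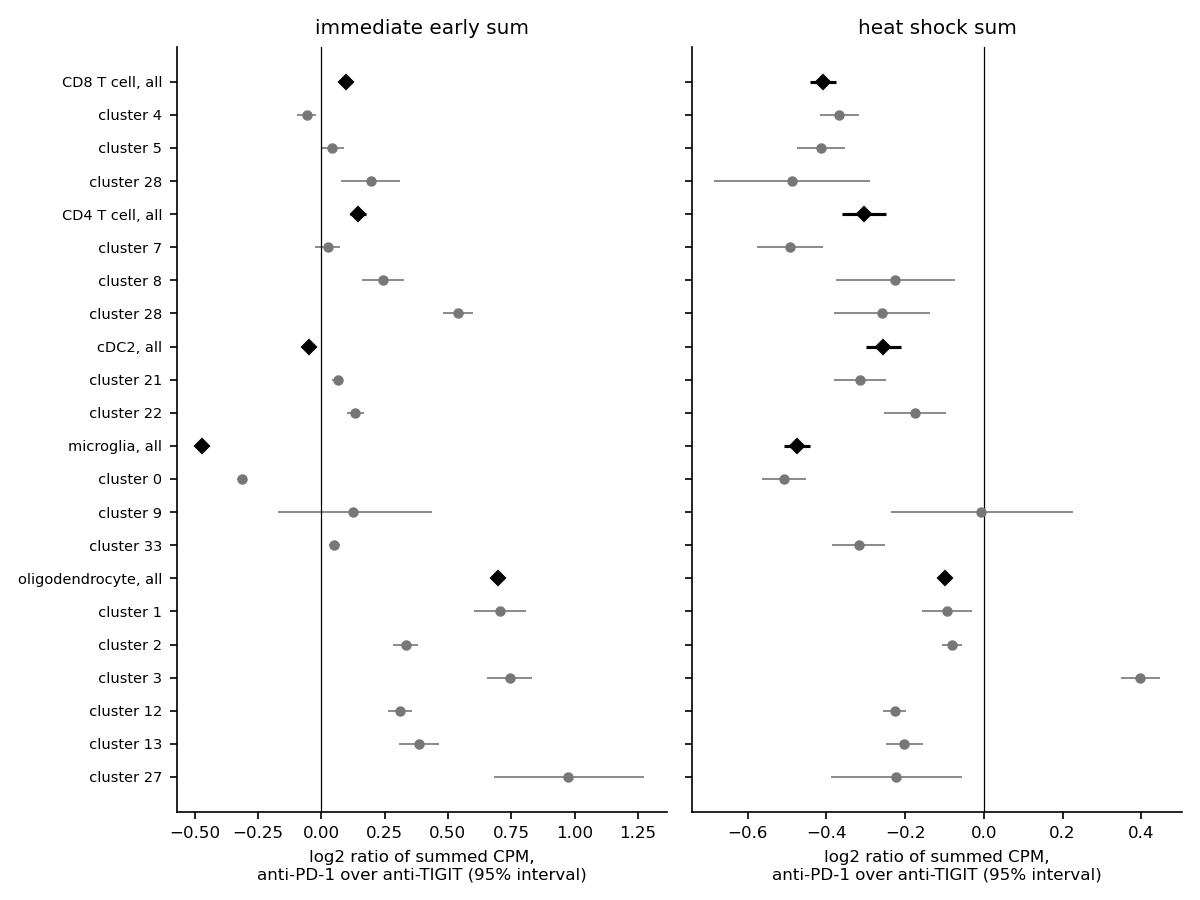
Log2 ratio of the summed CPM, anti-PD-1 over anti-TIGIT, of the immediate early group (left) and the heat shock group (right) in 5 cell classes as a whole (black diamonds) and in their numbered clusters with at least 30 cells of each library (grey points), with 95% intervals. Immediate early ratios lie above 0 in all 6 oligodendrocyte clusters, and in the 3 microglial clusters between -0.31 and 0.13, all above the -0.47 of microglia as a whole.

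Counted cell by cell at an equal depth of 1000 UMIs, the immediate early genes were spread over most cells of some classes and fewer of others. Cells under that depth were left out, at most 164 anti-PD-1 and 58 anti-TIGIT cells in any class. Microglia had a median of 28 immediate early UMIs per cell in the anti-PD-1 library and 42 in the anti-TIGIT library, and 11.5% of anti-PD-1 and 3.31% of anti-TIGIT microglia had none. Precursor cells had a median of 18 in the anti-PD-1 library and 7 in the anti-TIGIT library. Oligodendrocytes had a median of 2 and 1 UMIs in anti-PD-1 and anti-TIGIT cells, with a 95th percentile of 10.3 and 4. In UMIs, the oligodendrocyte difference was wider in the upper tail than at the median.

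Fos was seen in 23.1% (21.3 to 24.8) of anti-PD-1 cells and 7.42% (6.29 to 8.68) of anti-TIGIT cells among oligodendrocytes thinned to 1000 UMIs, and without thinning in 45.9% of anti-PD-1 cells and 22.6% of anti-TIGIT cells. No class can be taken to lack Fos or the other members below, so none gives a background for these shares, and the lowest share of Fos in another class was 10.6% in anti-PD-1 CD8 T cells. Junb was seen in 15.1% (13.7 to 16.7) of anti-PD-1 cells and 4.62% (3.73 to 5.65) of anti-TIGIT cells (unthinned in 39.6% of anti-PD-1 cells and 17.8% of anti-TIGIT cells). Among thinned oligodendrocytes with Fos, Egr1 was seen in 25.3% in the anti-PD-1 library and 11.2% in the anti-TIGIT library, and among those without Fos in 3.85% and 2.07%, so Egr1 was seen more often in cells with Fos in both libraries. In precursor cells Gadd45g was seen in 39.8% (35.8 to 43.9) of anti-PD-1 cells and 12.1% (6.42 to 20.2) of anti-TIGIT cells (unthinned in 71.1% of anti-PD-1 cells and 41.6% of anti-TIGIT cells). Median depths were 6581 UMIs in anti-PD-1 and 6222 UMIs in anti-TIGIT oligodendrocytes, and 5557.5 UMIs in anti-PD-1 and 4093 UMIs in anti-TIGIT precursor cells. In microglia Egr1 was seen in 69.2% (66.4 to 71.8) of anti-PD-1 cells and 86.8% (83.2 to 89.8) of anti-TIGIT cells (unthinned in 75% of anti-PD-1 cells and 85.1% of anti-TIGIT cells). Hspa8 was the member seen in the most anti-PD-1 oligodendrocytes, at 74.6% (72.8 to 76.4) of anti-PD-1 cells and 71.5% (69.4 to 73.5) of anti-TIGIT cells in oligodendrocytes (unthinned in 93.5% of anti-PD-1 cells and 92.2% of anti-TIGIT cells).

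Each library held cells with Xist, the RNA of the inactive X chromosome, and cells with Y-linked UMIs, and these were read apart. Cells with neither signal, or with both, were left out. Of 2459 anti-PD-1 oligodendrocytes 620 were read by Xist and 898 by Y-linked UMIs, and of 1210 anti-PD-1 microglia 291 and 346 in that order. The mix of the sexes differed between the libraries. Of the cells with either signal, those with Y-linked UMIs were 44.2% of anti-PD-1 and 75.1% of anti-TIGIT CD8 T cells, 58.6% of anti-PD-1 and 86.7% of anti-TIGIT CD4 T cells, 55.8% of anti-PD-1 and 94% of anti-TIGIT plasma cells, 34.8% of anti-PD-1 and 65.4% of anti-TIGIT cDC2, and 59.2% of anti-PD-1 and 56.9% of anti-TIGIT oligodendrocytes. In oligodendrocytes the immediate early ratio was 0.63 (0.59 to 0.68) among cells with Xist and 0.57 (0.53 to 0.61) among cells with Y-linked UMIs, and in precursor cells 0.73 (0.66 to 0.80) among cells with Xist and 1.0 (0.92 to 1.09) among cells with Y-linked UMIs. Both glial classes were thus higher in the anti-PD-1 library in cells of either kind. Microglia were lower in both, at -0.53 (-0.55 to -0.51) with Xist and -0.36 (-0.38 to -0.34) with Y-linked UMIs. Fos in oligodendrocytes had a ratio of 1.64 (1.49 to 1.79) with Xist and 1.75 (1.62 to 1.88) with Y-linked UMIs. Hspa1a in microglia had -1.41 (-1.72 to -1.09) with Xist and -2.23 (-2.60 to -1.86) with Y-linked UMIs. In CD8 T cells the immediate early sum gave 0.47 (0.40 to 0.54) among cells with Xist, 400 in the anti-PD-1 library and 67 in the anti-TIGIT library, and -0.02 (-0.06 to 0.02) among cells with Y-linked UMIs. Junb stood there at 0.83 (0.68 to 0.98) with Xist and 0.0043 (-0.08 to 0.09) with Y-linked UMIs, and Nfkbia at 1.43 (0.99 to 1.91) with Xist and 0.25 (0.07 to 0.43) with Y-linked UMIs. B cells with Xist were too few to be read. In B cells with Y-linked UMIs Fos had a ratio of 0.45 (0.19 to 0.71) and Egr1 of 0.29 (0.0075 to 0.58), both below the ratios of the whole class. Several calls of single members ended among cells with Xist, among cells with Y-linked UMIs or in both, on the scale of CPM + 5. Those of Atf3 and Btg2 in oligodendrocytes and of Atf3 in CD8 T cells ended in both. Among cells with Xist, oligodendrocytes had Atf3 at 0.97, Btg2 at 0.60, Zfp36 at 0.79 and Gadd45g at 0.80, precursor cells had Jun at 0.91, Junb at 0.76 and Ier3 at 0.95, CD8 T cells had Atf3 at 0.56 and microglia had Gadd45b at -0.56. Among cells with Y-linked UMIs, oligodendrocytes had Atf3 at 0.83, Ier2 at 0.66 and Btg2 at 0.83, precursor cells had Atf3 at 0.84, CD8 T cells had Atf3 at 0.22, microglia had Ier3 at -0.81 and Nfkbiz at -0.95, and B cells had Nfkbiz at -0.63.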

How the data were processed

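Single-cell RNA of 2 libraries was measured with a 10x Genomics kit that reads the 5′ ends of transcripts. The authors deposited a matrix of raw UMI counts per gene and cell for each library, and per the file headers Cell Ranger 8.0.0 made the anti-PD-1 matrix and 8.0.1 the anti-TIGIT matrix. Seurat 5.0.3, R 4.1.1 and the genome build mm10 are named in the submitters' processing notes.

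Cells were kept from 200 genes upward and up to 10% mitochondrial UMIs, and doublets were removed with Scrublet (expected rate 0.8% per 1000 cells), 584 in the anti-PD-1 and 147 in the anti-TIGIT library. A cell was placed in the class with the highest share of its markers detected, if that share was at least 37.5% with at least 3 markers, the next class of the lineage reached at most 75% of it, and classes of other lineages at most 45%. No class was given to 4429 anti-PD-1 and 1904 anti-TIGIT cells. In all, 4 gate settings were tried. The limit of 45% was added after the members' values had been seen under a limit of 75%, because C1qa stood at 248 CPM in anti-PD-1 and 12.3 CPM in anti-TIGIT CD8 T cells, and fibroblasts then fell below 100 cells in the anti-TIGIT library and left the comparison. The limit of 75% is kept as an alternative. Cells were also clustered without the members (2000 variable genes, 30 components, 15 neighbours, Leiden resolution 1, 37 clusters).

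Counts of a class were added up within each library and scaled to CPM, with exact Poisson intervals. Ratios of 2 levels have exact conditional binomial intervals and shares have Clopper-Pearson intervals, at 95%, for counting error only, and UMIs of 1 cell are not independent. For size calls, 5 CPM were added and at least 10 UMIs required. Shares were also taken with each cell thinned to 1000 UMIs. The design planned no test, since each treatment is 1 library, and the computation was tested on simulated data. The members and all lists were chosen with earlier results of these data known. Named in full are, per class, the member with the largest log2 ratio in each direction among those past 2-fold, those seen in the most cells, and those past 2-fold in at least 3 classes or with 1 direction in all 10; others are described by range and count, and some were named after their values were seen. Python 3.11.15, scanpy 1.11.5, scipy 1.17.1 and leidenalg 0.10.2 were used. Leaving out lymphocytes and glia with C1qa, C1qb or Lyz2 UMIs, the looser gate and a minimum of 2000 UMIs per cell were alternatives chosen after seeing the data. The other alternatives changed the filters, doublets, gates, depth, scaling, pseudocount and the sex of the cells. Cells without C1qa, C1qb or Lyz2 UMIs still held UMIs of other macrophage genes, such as C1qc.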

Additional observations from a re-analysis of the deposited data

Results flagged for a closer look

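The ratio of the immediate early sum, anti-PD-1 over anti-TIGIT, had opposite signs in the oligodendrocyte lineage and in microglia. It was 0.70 on the log2 scale in oligodendrocytes and -0.47 in microglia. In oligodendrocyte precursor cells it was 0.96, again with -0.47 in microglia. Within the microglial clusters compared, the ratio lay above that of the class. It was negative in the cluster led by Il1a, Cxcl13 and Hcar2 alone. Each class is 1 library per treatment, and the difference between the classes was not tested.

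In 2 myeloid classes the sign of the same ratio differed between cells with Xist and cells with Y-linked UMIs. In cDC2 it was -0.21 among cells with Xist and 0.041 among cells with Y-linked UMIs. In border macrophages it was 0.37 among cells with Xist and -0.12 among cells with Y-linked UMIs. These differences were not tested either.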

How the results depend on the processing

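No paired analysis was possible because each treatment is 1 library, and no replicate could be left out for the same reason. The count of 20 member and class pairs at least 2-fold higher was 12 with no doublet removal, 37 with every cell thinned to 1000 UMIs, 12 without lymphocytes and glia holding C1qa, C1qb or Lyz2 UMIs, and 9 with 20 CPM added. The count of 15 pairs lower was 24 among cells with Xist and 9 with at least 200 counts required. The median immediate early ratio of 0.14 was 0.17 with Leiden clusters in place of gates, 0.37 among cells with Xist, 0.060 among cells with Y-linked UMIs and 0.11 without the member with the most counts, and the heat shock median of -0.28 was -0.39 among cells with Xist. Fewer classes had enough cells of each sex.

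Directions turned in these values. The heat shock ratio of plasma cells was 0.14 with Leiden clusters, 0.15 when thinned and 0.059 with the looser gate. The immediate early ratio of cDC2 was 0.035 with Leiden clusters and 0.041 among cells with Y-linked UMIs, where that of CD8 T cells was -0.016 and that of border macrophages -0.12. The log2 ratio of (CPM + 5) of Atf3 in precursor cells was -0.14 with no doublet removal, that of Klf4 there -0.081 when thinned, and that of Gadd45g in B cells 0.12 with the looser gate. In microglia the share of cells with Fos was 4.79 percentage points higher in the anti-PD-1 library among cells with Xist and 1.40 points higher among cells with Y-linked UMIs, and that with Junb 5.20 points higher among cells with Xist and 0.41 points among cells with Y-linked UMIs, while over all microglia the differences were -8.91 points for Fos and -10.6 points for Junb. Microglia with neither signal, or with both, are in neither of these subsets. The causes were not tested. Of the pairs that still had a value, those that kept their call were 9 of 17 higher and 10 of 11 lower among cells with Xist, 14 of 19 higher and 8 of 13 lower among cells with Y-linked UMIs, 16 of 18 higher and 8 of 12 lower when thinned, 17 of 20 higher and 12 of 15 lower with Leiden clusters, 19 of 20 higher and 12 of 15 lower with the looser gate, and 20 of 20 higher and 12 of 15 lower relative to the median of all genes. All 15 lower pairs kept theirs with no doublet removal and without cells holding C1qa, C1qb or Lyz2 UMIs, each beside 12 of 20 higher, and with at least 2000 UMIs per cell, beside 16 of 20 higher. The changed gene and mitochondrial limits and the extra marker kept at least 19 of 20 higher and all 15 lower. With 101 precursor cells and 108 cDC1 in the anti-TIGIT library, low members of those classes rest on few UMIs.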
